A study of Mus musculus with 45 samples.

Results

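The MYC and MAX network was followed here as 8 genes of the 28195 analysed: Myc, Mycn, Max, Mxd1, Mxd3, Mxd4, Mxi1 and Mnt. The members were taken by gene symbol from both deposited tables, which hold a row for all 8. The set was chosen with earlier results of these data known. They were read in all 15 groups of the series, 45 RNA-sequencing libraries with 3 in each group, from mouse splenic B2 cells before culture and during culture toward plasma cells. All mice are labelled with a C57BL/6 background.

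The wild type groups were B cells at day 0, cells at days 4, 7 and 10 of a TLR culture and of a BCR culture, and cells at days 4 and 7 of an LPS culture. The other genotype is labelled Prdm1Δex1A and is called dEx1A below. It carries a change of exon 1A of Prdm1, the gene of the repressor Blimp-1, and was sampled at days 4 and 7 of all 3 cultures. Its zygosity, a dEx1A day 0 group and a dEx1A day 10 group were not among the sources used here. Per the labels' protocols, the TLR culture gave B cells LPS at 5 µg/mL with 50 ng/mL of both IL-5 and IL-4, on irradiated L cells that carry CD40L. In the BCR culture F(ab')2 anti-IgM/IgG at 12 µg/mL took the place of LPS. The L cells were left behind at day 2, and from day 4 both media held IL-6 at 10 ng/mL and APRIL at 100 ng/mL with amino acids and lipids. The make-up of the LPS culture is not given in the sources used here. By label, day 0 held B cells, days 4 and 7 plasmablasts, and day 10 plasma cells. Wild type LPS libraries and all dEx1A libraries are labelled as 9-week females, and the other wild type libraries as 7-week males, so in the TLR and BCR cultures genotype cannot be told apart from sex and age.

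MYC and its relative N-MYC are transcription factors that bind the E-box sequence as a pair with MAX and raise the transcription of genes for ribosome assembly, metabolism and cell division. The MXD proteins (MXD1, MXD3, MXD4 and MXI1) and MNT also pair with MAX, and bring SIN3 corepressors to the same sites. MAX is thus the shared partner of activators and repressors. In B cells Myc is induced when antigen or microbial signals start division, and Blimp-1 is known to repress Myc as cells become plasma cells.

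Values are log2 expression on the authors' variance-stabilised scale, where a gene with no read sits at 3.04. Differences are in log2 units with their standard error (SE), and were called where limma's moderated test across all genes gave a Benjamini-Hochberg adjusted p under 0.05. Each group held 3 libraries (n = 3), and nothing in the labels says that they came from separate animals, so the tests measure the spread between libraries. Reads per library, recovered from the values and given in mega-reads (M), ranged from 15.12 to 35.56 M with a median of 23.23 M. The 15 libraries under 20 M were the wild type LPS libraries and the day 7 dEx1A libraries. In those the GC-rich quartile of protein-coding genes sat 0.73 to 1.68 log2 units higher against the GC-poor quartile, and in the other 30 libraries the same offset ran from -1.91 to 0.60. Among protein-coding genes the members' GC content ranked from the percentile 43.4 (Max) to 94.3 (Mnt), with Mxd4 at 88.2, Mxd3 at 83.6, Myc at 76.2 and Mycn at 68.0. Values corrected for GC content and length are therefore given beside called differences that lose the call, turn direction or move by over 1.5 times with that correction. Mature B cell markers had reads in all groups, with the highest sums at day 0 (200594 to 209025 normalised reads over 8 genes). Fibroblast markers other than Thy1 summed to 31 to 91 normalised reads at day 0. At day 4 the sums were 468 to 793 in wild type TLR, 491 to 1495 in wild type BCR and 7 to 16 in wild type LPS. In dEx1A they were 288 to 651 in TLR and 670 to 1682 in BCR. At day 7 wild type sums were 42 to 150 in TLR and 267 to 327 in BCR. The part of fibroblast RNA in the member steps was not tested.

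RefSeq gave an upstream sequence for 7 of the 8 members on build GRCm38.p6, and no entry for Myc. The windows were searched on both strands for the E-box, CACGTG, bound by MYC-MAX and MXD-MAX pairs, and for GAAAG, the core of the sequence that Blimp-1 binds. An E-box stood in the windows of Mxd4 and Mnt, and in none of the windows searched for the other 5. Bases inside the annotated gene were left out, so some windows were short, such as Mxd3 (158 bases) and Mycn (172 bases). Further Mxi1 starts, with windows inside the gene, were not searched. Over all genes 1978 of 32851 full upstream windows of 250 bases held an E-box (6.02%), and 16924 held GAAAG (51.5%), so that a GAAAG match is common. The Mycn window, shown because Mycn had the largest genotype difference of a member at day 7 of the BCR culture, held 2 GAAAG matches. A match describes the letters only, and binding was not measured. The 3 windows end just before the annotated start, are written 5′ to 3′ on the gene's strand, and carry the E-box (Mxd4, Mnt) or GAAAG and its complement CTTTC (Mycn) in capitals. The Mnt window also holds 1 GAAAG, left in lower case. They lie at chr5:34187721-34187960 (minus strand, Mxd4), chr11:74830674-74830919 (plus strand, Mnt) and chr12:12941915-12942086 (minus strand, Mycn).
Mxd4: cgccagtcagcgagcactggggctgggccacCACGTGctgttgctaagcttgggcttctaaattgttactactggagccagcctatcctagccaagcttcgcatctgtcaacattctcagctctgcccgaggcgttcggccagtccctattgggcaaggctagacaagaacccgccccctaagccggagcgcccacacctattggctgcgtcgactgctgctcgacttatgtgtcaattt
Mnt: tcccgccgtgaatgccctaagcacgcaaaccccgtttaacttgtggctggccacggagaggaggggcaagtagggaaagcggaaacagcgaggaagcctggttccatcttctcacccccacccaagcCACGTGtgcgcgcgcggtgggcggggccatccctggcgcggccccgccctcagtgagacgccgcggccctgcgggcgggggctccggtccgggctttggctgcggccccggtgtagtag
Mycn: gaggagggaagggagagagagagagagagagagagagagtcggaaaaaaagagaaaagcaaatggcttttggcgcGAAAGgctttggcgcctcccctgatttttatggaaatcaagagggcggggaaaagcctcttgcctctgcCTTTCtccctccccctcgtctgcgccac

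On the GRCm38 annotation the genes lie apart. Myc spans 61985391 to 61990374 on chromosome 15, and Mnt 74830920 to 74845725 on chromosome 11. Mycn (12936093 to 12941914) and Max (76937269 to 76962201) share chromosome 12 without being neighbours. Mxd1 lies at 86647042 to 86669161 on chromosome 6, Mxd3 at 55325168 to 55329823 on chromosome 13, Mxd4 at 34173883 to 34187720 on chromosome 5, and Mxi1 at 53310518 to 53375810 on chromosome 19. Mxd3 overlaps Prelid1, a gene on the opposite strand that reached 12.76, and since the strand setting of the counting is not given here, Mxd3 values are uncertain. Overlapping genes of the other members stayed lower, with Gm47218 (over Max) at 7.99 at most, Gm42846 (over Mxd4) at 6.99, Gm10197 (over Mxi1) at 6.1 and Gm44292 (over Mxd1) at 4.58.

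Over the 15 group means Myc had the widest range of the 8 members, 4.10 log2 units, and Max the narrowest, 1.21. In between were Mycn (3.76), Mxd3 (3.53), Mxd4 (3.24), Mxi1 (2.47), Mxd1 (2.03) and Mnt (1.99). The median SD within a group was 0.09 for Max and 0.11 for Mxd1, and reached 0.28 to 0.30 for Mnt, Mxd4 and Mxd3. All 8 passed the filter on low values in both tables, but Mycn passed it only through the groups where it is high, since 18 of the 45 libraries had no Mycn read. Its differences that involve those groups, and its place in the counts of members called, are therefore given as descriptions, without p-values.

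In wild type cells of the TLR culture Myc fell in steps while the repressor genes moved in different directions. Myc read 11.59, 11.00 and 11.37 in the day 0 libraries, then 10.42, 10.73 and 10.24 at day 4, 8.19, 8.74 and 8.51 at day 7, and 8.27, 7.83 and 8.01 at day 10. Groups did not overlap until day 7, after which the day 7 and day 10 libraries did. The step to day 4 was -0.86 (SE 0.20, limma adjusted p = 0.00208) and the step to day 7 was -1.98 (SE 0.20, adjusted p = 6.04e-07). From day 7 to day 10 the difference was -0.44 and not called (adjusted p = 0.211), while it was called once corrected for GC content and length (-0.65, adjusted p = 0.00367), and with median centring (-0.58, adjusted p = 0.0496). By day 10 Myc stood 3.28 below day 0 (-3.28, SE 0.20, adjusted p = 3.91e-10), a ratio of normalised reads of 0.10.

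Mycn was near the floor in this culture. Its reads were 4, 3 and 1 at day 0, 2, 3 and 2 at day 4, 0, 0 and 1 at day 7 and 0 in each day 10 library. With so few reads no difference or fold is given for this culture, although limma called Mycn between day 0 and day 10 and voom on recovered reads did not.

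Max, the shared partner, read 10.49 to 10.60 at day 0 and 10.30 to 10.48 at day 4 of the TLR culture, a difference of -0.16 that was not called (adjusted p = 0.59). It then fell to 9.41, 9.50 and 9.53 at day 7 (-0.91, SE 0.22, adjusted p = 0.00322) and read 9.27, 9.68 and 9.49 at day 10. The ratio of normalised reads between day 10 and day 0 was 0.47, against 0.10 for Myc.

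Among the repressor genes of the TLR culture, Mxd4, which is known from resting and differentiated cells, went down and then up. It read 10.42, 10.54 and 10.80 at day 0, 9.39, 9.38 and 8.81 at day 4, 11.12, 11.78 and 11.51 at day 7, and 11.95, 11.39 and 11.40 at day 10. No day 4 library reached the day 0 range, and every day 7 library exceeded it. The first step was -1.39 (SE 0.27, adjusted p = 0.000318) and the second 2.28 (SE 0.27, adjusted p = 2.94e-06), in the opposite direction to Myc. Mxi1, a MAX partner known to antagonise MYC, rose at day 4 from 7.84, 8.07 and 7.97 to 9.44, 9.30 and 9.85 (1.57, SE 0.17, adjusted p = 6.79e-07). It was 1.91 above day 0 at day 10 (SE 0.17, adjusted p = 5.56e-08).

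Mxd1, a MAX partner known from terminally differentiating cells, rose less. It read 8.42, 8.53 and 8.23 at day 0 and 9.07, 8.91 and 9.00 at day 4 (0.60, SE 0.17, adjusted p = 0.00703), and was 1.09 above day 0 at day 10 (adjusted p = 3.72e-05). From day 7 to day 10 both Mxd1 (0.63, adjusted p = 0.0291) and Mxi1 (0.62, adjusted p = 0.0355) were called. The Mxi1 call was lost on leaving out any 1 of the 6 libraries (0.54 to 0.67), with GC content and length corrected (0.57, adjusted p = 0.0962), and with median centring, quantile normalisation or voom. The Mxd1 call was lost with median centring (0.49, adjusted p = 0.0835) and on leaving out any of them but day 10 replicate 3 (0.56 to 0.67). Mxd3, the member known from the S phase of dividing cells, rose at day 4 (1.30, SE 0.33, adjusted p = 0.00363) and read 5.57 to 6.38 there against 4.60 to 5.11 at day 0. Mnt, the most widely expressed MAX-pairing repressor, fell from 9.41, 9.17 and 9.49 to 7.90, 8.28 and 7.28 (-1.54, SE 0.34, adjusted p = 0.0011). At day 10 Mnt stood at 9.11, 8.25 and 8.32, and its difference from day 0 was not called (-0.80, adjusted p = 0.0646), but was once corrected for GC content and length (-0.76, adjusted p = 3.02e-05), with median centring (-0.95, adjusted p = 0.00923) and with quantile normalisation.

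Of the 8 members, 6 were called from day 0 to day 4 of the wild type TLR culture, against 48.3% of all genes tested. The counts were 3 of 8 from day 4 to day 7 (background 36.3%), 2 of 8 from day 7 to day 10 (background 8.20%; 2 higher and 0 lower, or 1 higher and 2 lower after the GC and length correction) and 6 of 8 from day 0 to day 10 (background 46.0%). The first 2 steps thus sit among broad changes, and with 8 genes these shares are descriptions.

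**Figure D1:**
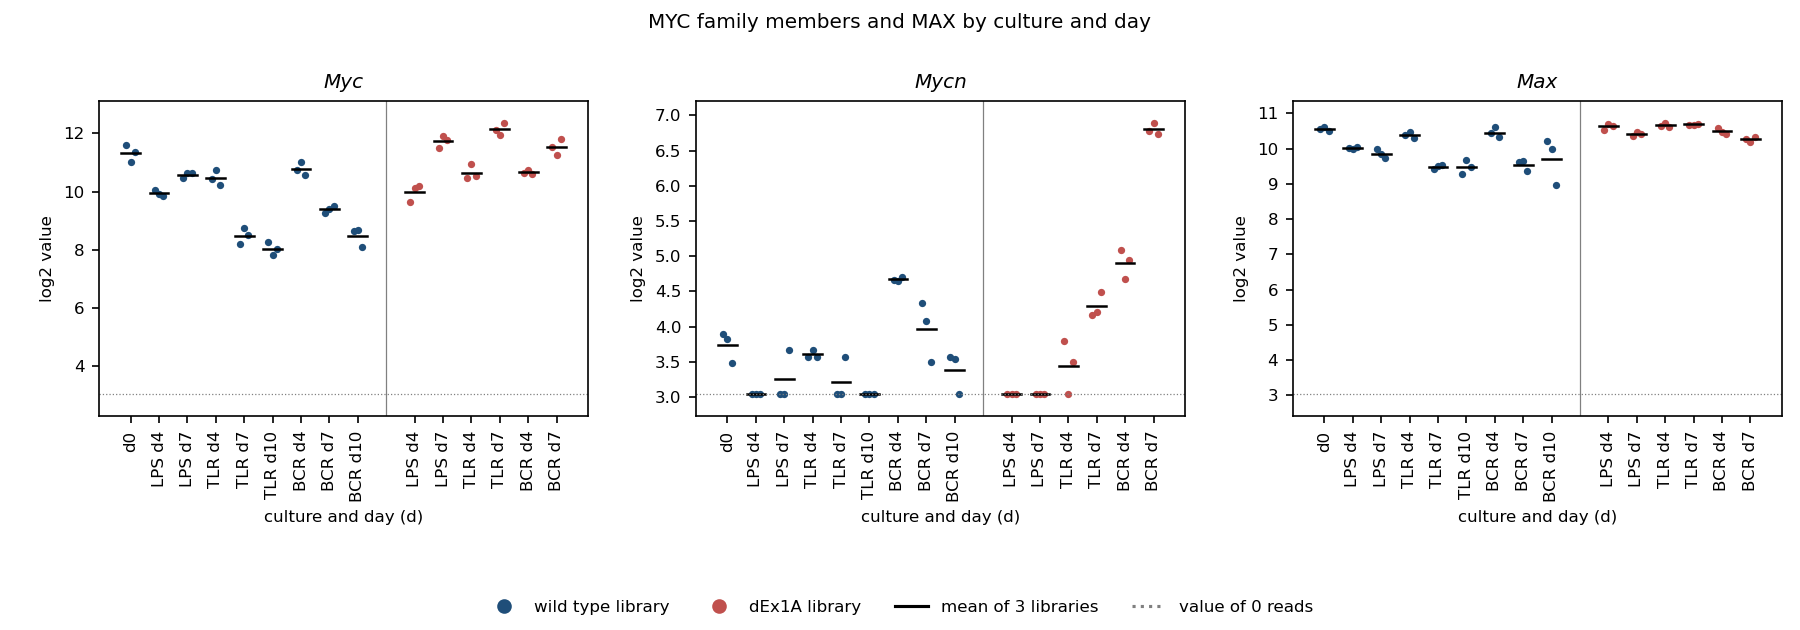
Log2 expression values of Myc, Mycn and Max in each of the 3 libraries (points) of every group, by culture and day (x axis); colour marks the genotype, short bars mark group means, and the dotted line at 3.04 is the value of a gene with no read. At day 7 the dEx1A Myc points lie between 11.26 and 12.37 in all cultures. The wild type points at that day lie at 8.19 to 8.74 in TLR, 9.25 to 9.51 in BCR and 10.47 to 10.64 in LPS. At day 10 of the TLR culture, a day without dEx1A libraries here, the wild type Myc points lie at 7.83 to 8.27.

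In the wild type BCR culture Myc also fell at each step. It read 10.74, 11.01 and 10.56 at day 4, 9.25, 9.41 and 9.51 at day 7, and 8.65, 8.67 and 8.09 at day 10, against 11.00 to 11.59 at day 0. The step to day 4 was -0.55 (SE 0.20, adjusted p = 0.0325); the groups overlapped, and the call was lost without replicate 1 or 3 of day 4 or of day 0 (-0.54 to -0.41). The step to day 7 was -1.38 (SE 0.20, adjusted p = 4.81e-05) and that to day 10 was -0.92 (SE 0.20, adjusted p = 0.00521).

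Mycn had more reads in the BCR culture than in the TLR culture, though still few beside Myc. Reads were 15, 15 and 22 at day 4, 8, 7 and 1 at day 7, and 1, 1 and 0 at day 10. The rise to day 4 was 0.94 (SE 0.21), and every day 4 library (4.66, 4.65 and 4.70) lay above day 0 (3.90, 3.82 and 3.48). The fall to day 7 was -0.70 (SE 0.21), and without day 7 replicate 3 it was -0.46 and no longer called. Max was not called at day 4 (-0.09, adjusted p = 0.755) and fell at day 7 (-0.91, SE 0.22, adjusted p = 0.00384).

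The repressor genes of the BCR culture shared with the TLR culture the fall and rise of Mxd4 and the fall of Mnt. Mxd4 read 9.13, 9.45 and 8.69 at day 4 (-1.50, SE 0.27, adjusted p = 0.000143) and 10.77, 11.34 and 11.78 at day 7 (2.21, SE 0.27, adjusted p = 5.27e-06). Mnt fell at day 4 (-1.61, SE 0.34, adjusted p = 0.000687) to 7.57, 8.27 and 7.41. Mxd3 rose at day 4 by 1.32 (SE 0.33, adjusted p = 0.00289). Mxd1 here fell first, to 7.51, 7.60 and 7.58 (-0.83, SE 0.17, adjusted p = 0.000503), then rose at day 7 (0.85, SE 0.17, adjusted p = 0.000851) and at day 10 (1.18, SE 0.17, adjusted p = 0.000274). Mxi1 was not called at day 4 (0.42, adjusted p = 0.0537) and was called from day 7 to day 10 (0.74, SE 0.17, adjusted p = 0.00717), but not once corrected for GC content and length (0.57, adjusted p = 0.0601) or with median centring (0.52, adjusted p = 0.175).

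Members called numbered 6 of 8 to day 4 (background 50.6%), 5 of 8 to day 7 (background 30.5%), 3 of 8 to day 10 (background 16.7%) and 5 of 8 between day 0 and day 10 (background 52.4%). The day 0 libraries serve both cultures. The sum of 12 myeloid markers at day 10 was 285586 and 237061 normalised reads in BCR replicates 1 and 2 against 32333 in replicate 3, and 9611 to 92272 in the TLR libraries. Max ran 10.21, 9.98 and 8.96 in those 3 BCR libraries and overlapped with day 7 of its culture. Without replicate 3 the Max difference between day 10 and day 0 was -0.46, and that between day 10 and day 7 became called (0.55, adjusted p = 0.00725, against 0.17 with all libraries). Without the 2 libraries high in myeloid markers the difference between day 10 and day 0 was -1.59 for Max in place of -0.83, -3.23 for Myc in place of -2.85 and -1.71 for Mnt in place of -1.24. The same omission put Mxd3 past the threshold for day 10 against day 7 (-1.59, adjusted p = 0.0375, against -0.97 with all libraries). It leaves 1 library in that group, whose spread is assumed to be that of the other groups, and the part of myeloid RNA in these values was not tested.

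Direct comparison of the TLR and BCR cultures of wild type cells found 3 of 8 members called at day 4 against a background of 7.57%. Mycn was lower in TLR cells (-1.07, SE 0.21), with 2 to 3 reads a library against 15 to 22. Mxd1 was higher (1.43, SE 0.17, adjusted p = 2.3e-05) and so was Mxi1 (1.15, SE 0.17, adjusted p = 0.000275), with no overlap between the cultures for either. Myc differed by -0.31 and was not called (adjusted p = 0.493); same-numbered libraries deviated together at this day, and with the replicate number as a block the call was made (-0.31, adjusted p = 0.0138).

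At day 7 again 3 of 8 were called (background 6.27%). Myc was lower in TLR cells by 0.91 (-0.91, SE 0.20, adjusted p = 0.0129) with 8.19 to 8.74 against 9.25 to 9.51. Mycn was lower (-0.76), and Mxi1 was higher (0.79, SE 0.17, adjusted p = 0.0109). The calls for Myc (-0.90 to -0.77) and Mxi1 (0.74 to 0.76) were lost without TLR replicate 1 or BCR replicate 2. The Mycn call (-0.70 to -0.57) was lost without replicate 1 or 2 of either culture and after the GC and length correction (-0.61). At day 10 Mxi1 alone was called (0.67, SE 0.17, adjusted p = 0.0184; 1 of 8, background 14.4%). The call was lost without TLR replicate 1 or 3 or BCR replicate 1 or 2 (0.55 to 0.69). It was not made with the replicate number as a block (adjusted p = 0.244) or without the 2 BCR libraries high in myeloid markers (0.31, adjusted p = 0.677).

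In the LPS culture of wild type cells Myc was lower than at day 0 but did not go on falling. It read 10.06, 9.93 and 9.86 at day 4 and 10.47, 10.64 and 10.64 at day 7. Day 4 lay 1.37 below day 0 (-1.37, SE 0.18, adjusted p = 1.05e-07), and day 7 lay above day 4 by 0.63 (SE 0.18, adjusted p = 0.0225), a call lost without replicate 2 or 3 of either day (0.59 to 0.62). Mycn had no read in any day 4 library and 1 read in 1 day 7 library. Max was lower at day 4 than at day 0 (-0.53, SE 0.09, adjusted p = 8.48e-06).

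The LPS culture held the highest wild type Mxd3 values, 8.25, 8.34 and 8.40 at day 4 against 4.60 to 5.11 at day 0 (3.53, SE 0.29, adjusted p = 1.04e-11). Mxd4 was higher than at day 0 (0.61, SE 0.23, adjusted p = 0.0211), a call lost without replicate 1 or 2 of either day (0.53 to 0.59) and at 0.27 after the GC and length correction, and Mxi1 was lower (-0.52, SE 0.14, adjusted p = 0.0024). Mnt was not called (-0.55). Over the other settings its difference ran from -0.99 to -0.55, with a lowest adjusted p of 1.5e-08 and a highest of 0.085, so its call depends on the setting. From day 0 to day 4, 6 of 8 members were called (background 58.0%). Mycn was among them, with 0 reads in each day 4 library against 1 to 4 at day 0. From day 4 to day 7, 2 of 8 were called (background 8.40%), Myc and Mxi1 (0.84, SE 0.14, adjusted p = 0.000245). The day 0 libraries came from males of another age with 20.25 to 21.87 M reads and the LPS libraries held 15.52 to 19.40 M at day 4, so the first LPS step crosses culture, sex, age and depth, which cannot be told apart.

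**Figure D2:**
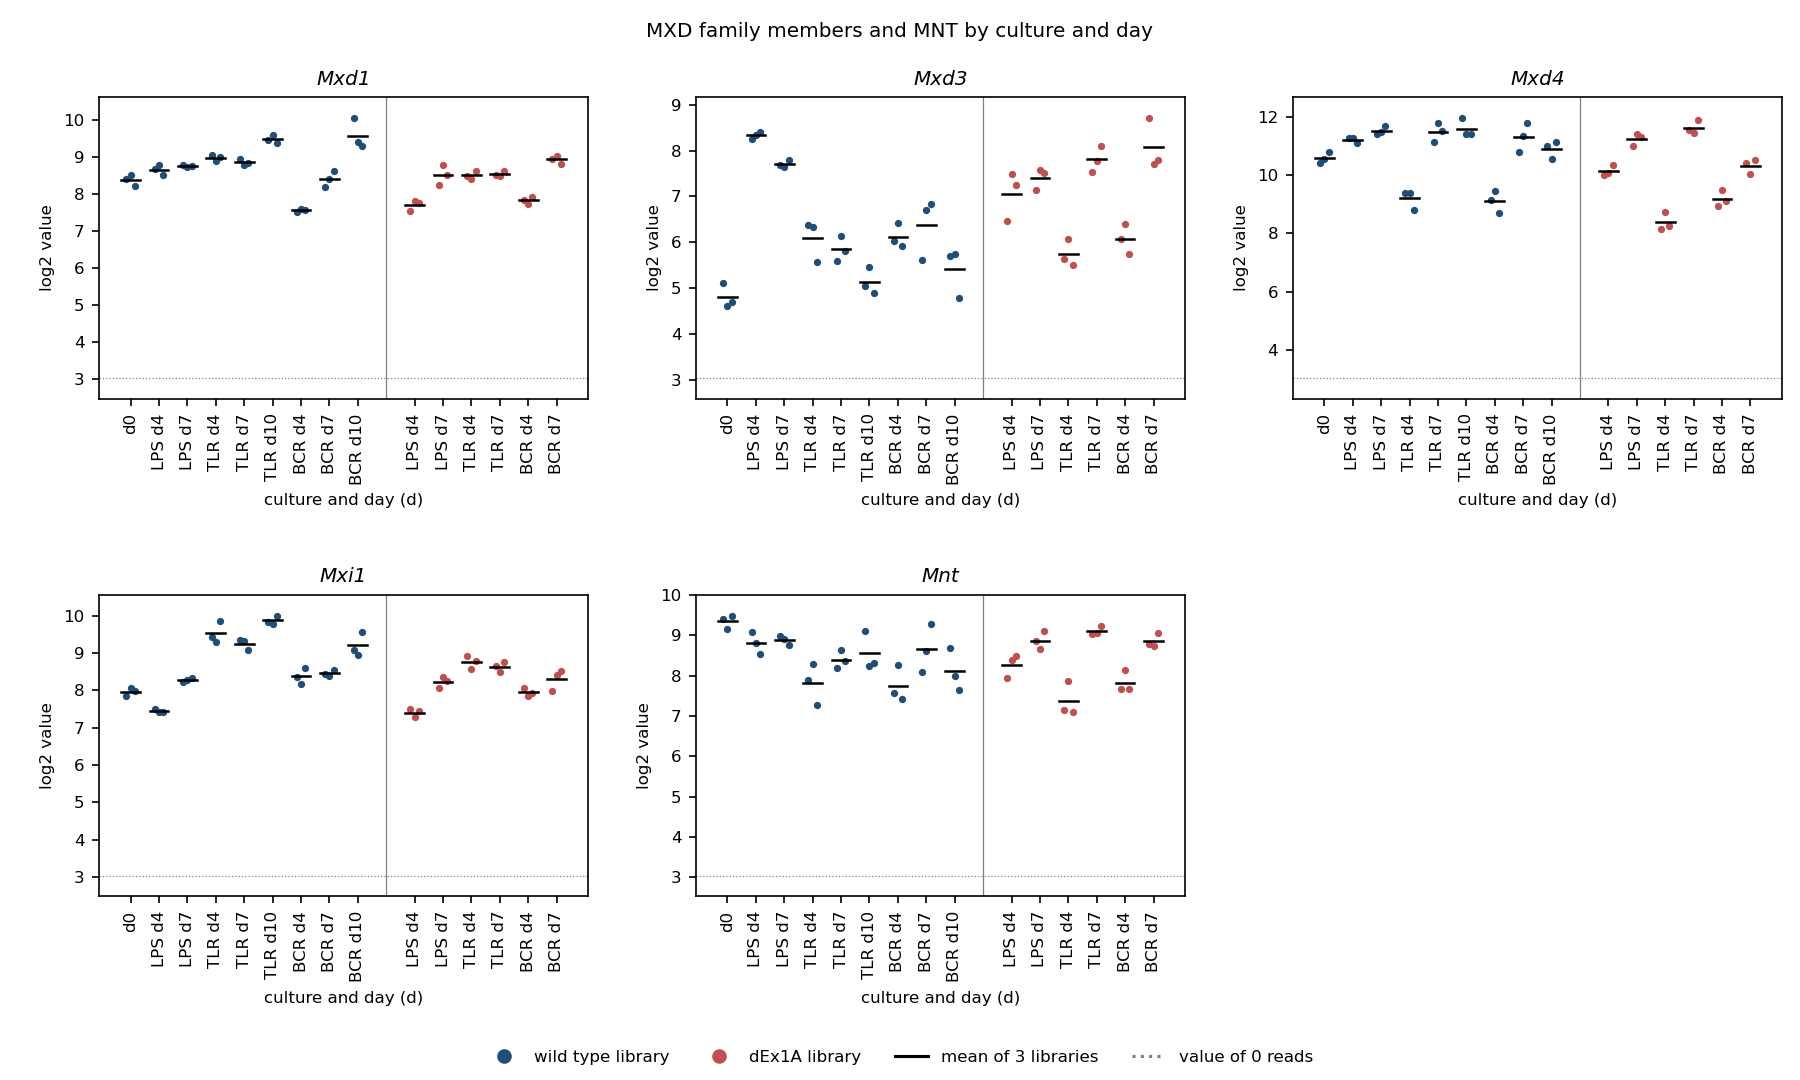
Log2 expression values of Mxd1, Mxd3, Mxd4, Mxi1 and Mnt in each of the 3 libraries (points) of every group, by culture and day (x axis), with colour for the genotype and short bars for group means. Mxd4 falls to 8.69 to 9.45 at day 4 of the wild type TLR and BCR cultures and returns to 10.77 to 11.78 at day 7, and the highest Mxd3 group means are those of wild type LPS cells and day 7 dEx1A cells. Those groups are also the ones under 20 M reads with the higher GC offset, and the values shown are not corrected for it.

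In dEx1A cells Myc rose between day 4 and day 7 in all 3 cultures. In the TLR culture it read 10.45, 10.95 and 10.54 at day 4 and 12.11, 11.95 and 12.37 at day 7 (1.50, SE 0.18, adjusted p = 2.77e-08). The LPS values were 9.65, 10.12 and 10.19, then 11.48, 11.92 and 11.76 (1.73, SE 0.18, adjusted p = 9.85e-09). The BCR values were 10.65, 10.75 and 10.59, then 11.53, 11.26 and 11.79 (0.86, SE 0.18, adjusted p = 0.000206). In each culture every day 7 library lay above every day 4 library. These steps run from libraries of 23.23 to 30.09 M reads to libraries of 15.12 to 19.58 M. With the correction for GC content and length the Myc rise was 0.73 in TLR and 1.42 in LPS, both called, and 0.23 in BCR, not called (adjusted p = 0.108).

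Mycn rose over the dEx1A BCR culture from 30, 20 and 22 reads at day 4 to 97, 108 and 91 at day 7. On the log2 scale it went from 5.09, 4.67 and 4.94 to 6.78, 6.90 and 6.73 (1.90, SE 0.20). These day 7 values were the highest Mycn values of the series. In the TLR culture reads went from 3, 0 and 1 to 4, 4 and 6 (0.85, SE 0.20), a difference no longer called with the GC and length correction (0.35). The LPS culture had no Mycn read in any dEx1A library.

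Max read 10.64, 10.74 and 10.61 at day 4 of the dEx1A TLR culture and 10.68, 10.68 and 10.71 at day 7 (0.03, adjusted p = 0.821; 0.20 and called after the correction). It was lower at day 7 in BCR (-0.22, SE 0.09, adjusted p = 0.0379). The BCR call was lost without replicate 1 or 2 of either day (-0.24 to -0.17) and with the GC and length correction (-0.11). In the LPS culture the Max difference was -0.21 (adjusted p = 0.0684).

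Among the repressor genes Mxd4 rose over this step in all 3 dEx1A cultures. It read 8.15, 8.73 and 8.26 at day 4 of the dEx1A TLR culture and 11.53, 11.45 and 11.89 at day 7 (3.24, SE 0.23, adjusted p = 6.93e-13), the largest step of a repressor gene in the dEx1A cultures. It rose by 1.16 in BCR (SE 0.23, adjusted p = 0.000102) and by 1.10 in LPS (SE 0.23, adjusted p = 0.000298). With the GC and length correction the Mxd4 steps were 2.09, 0.27 and 0.56, all still called. Mxd3 rose by 2.07 in TLR (SE 0.29, adjusted p = 5.35e-07) and by 2.00 in BCR (SE 0.29, adjusted p = 2.75e-06), or by 1.07 and 1.16 after correction, and was not called in LPS (0.34, adjusted p = 0.408).

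Mnt rose in TLR (1.74, SE 0.26, adjusted p = 1.05e-06) and BCR (1.03, SE 0.26, adjusted p = 0.00137), and after correction the values were 0.39, still called, and 0.02, not called. Mxd1 rose in BCR (1.11, SE 0.12, adjusted p = 1.97e-08) and LPS (0.81, SE 0.12, adjusted p = 5.74e-06). Mxi1 rose in LPS (0.82, SE 0.14, adjusted p = 3.94e-05), and its BCR call (0.36, adjusted p = 0.032) was lost without replicate 2 or 3 of either day (0.26 to 0.36) and after correction (0.24). Members called were 4 of 8 in LPS (background 34.1%), 5 of 8 in TLR (background 62.1%) and 8 of 8 in BCR (background 53.9%).

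Between the dEx1A cultures, 4 of 8 members were called for TLR against BCR at day 4 (background 16.7%) and 5 of 8 at day 7 (background 31.5%). Mycn was lower in TLR at both days (-1.46, SE 0.20, and -2.52, SE 0.20). Mxd4 was lower in TLR at day 4 (-0.78, SE 0.23, adjusted p = 0.0137), a call lost without TLR replicate 1 or 3 or BCR replicate 2 (-0.72 to -0.62), and higher at day 7 (1.30, SE 0.23, adjusted p = 3.41e-05). Mxd1 (0.68, adjusted p = 0.000103) and Mxi1 (0.81, adjusted p = 7.59e-05) were higher in TLR at day 4, as in wild type cells. At day 7 Max was higher in TLR (0.42, SE 0.09, adjusted p = 0.000495), and Myc as well (0.62, SE 0.18, adjusted p = 0.00818); the Myc call was lost without TLR replicate 3 or BCR replicate 2 (0.48 to 0.50). Mxd1 was lower in TLR at day 7 (-0.39, SE 0.12, adjusted p = 0.0146), and that call was lost without replicate 2 of either culture (-0.36 to -0.34).

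The genotypes were compared within each culture and day. Prdm1, the gene altered in dEx1A mice, was lower in dEx1A cells in LPS at day 4 (-2.68, SE 0.28, adjusted p = 1.86e-08) and day 7 (-1.40, adjusted p = 0.000949), in BCR at day 4 (-1.56, adjusted p = 0.000907) and day 7 (-2.15, adjusted p = 2.52e-07), and in TLR at day 7 (-1.38, adjusted p = 0.000145). It did not differ by the test in TLR at day 4 (0.29, adjusted p = 0.571). The values count reads of the whole gene and do not isolate exon 1A. In dEx1A cells Prdm1 still rose from day 4 to day 7, by 1.37 in LPS, 1.73 in TLR and 2.13 in BCR.

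At day 4 Myc was not called between genotypes in any of the 3 cultures. The differences were 0.04 in LPS, 0.18 in TLR and -0.11 in BCR (SE 0.18 each, adjusted p = 0.941, 0.581 and 0.953). After the correction for GC content and length the TLR difference was 0.47 and called. In the BCR culture none of the 8 members was called at day 4 (background 1.86%), and voom on recovered reads also called 0. In limma's fit across all genes 2 members were under an unadjusted p of 0.05, Mxd1 (0.27) and Mxi1 (-0.43). In the TLR culture 3 of 8 were called, all lower in dEx1A (background 7.23%). These were Mxi1 (-0.77, SE 0.14, adjusted p = 0.000926), Mxd4 (-0.81, SE 0.23, adjusted p = 0.0236) and Mxd1 (-0.48, SE 0.12, adjusted p = 0.0129). The Mxd4 call was lost without dEx1A replicate 1 or 3 or wild type replicate 1 or 2 (-0.75 to -0.70) and was -0.44 after the GC and length correction. The Mxd1 call was lost without wild type replicate 1 (-0.44).

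In the LPS culture at day 4, 4 of 8 members were called (background 24.4%), with Max higher in dEx1A and 3 repressor genes lower. Max read 10.54, 10.71 and 10.64 against 10.02, 9.99 and 10.04 in wild type (0.61, SE 0.09, adjusted p = 7e-06). Mxd1 read 7.56, 7.82 and 7.76 against 8.69, 8.78 and 8.51 (-0.95, SE 0.12, adjusted p = 7.57e-07). Mxd3 was lower by 1.27 (-1.27, SE 0.29, adjusted p = 0.00182) and Mxd4 by 1.07 (-1.07, SE 0.23, adjusted p = 0.000691), or -0.95 and -0.62 after the GC and length correction. Sex and age labels match here, but the dEx1A libraries held 26.13 to 30.09 M reads and the wild type libraries 15.52 to 19.40 M. The plasma cell marker sum was 30143 to 52112 normalised reads in dEx1A and 150295 to 158374 in wild type, and its part in these differences was not tested.

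At day 7 of the LPS culture both genotypes share the labelled sex and age and lie in the same depth range (15.12 to 18.65 M in dEx1A, 15.61 to 16.70 M in wild type). There 2 of 8 members were called, against 7.08% of all genes, and both were higher in dEx1A. Myc read 11.48, 11.92 and 11.76 against 10.47, 10.64 and 10.64 (1.14, SE 0.18, adjusted p = 3.61e-05), a ratio of normalised reads of 2.23. Max read 10.37, 10.47 and 10.41 against 9.99, 9.86 and 9.73 (0.56, SE 0.09, adjusted p = 5.79e-05), a ratio of 1.48. For both genes the genotypes did not overlap. The GC and length correction gave 1.14 and 0.58. Among mature B cell markers Fcer2a (-2.20), Cd79a (-1.54) and Cr2 (-1.17) were lower in dEx1A, and the sum of the 8 was 59089 to 74734 normalised reads against 110224 to 118231. The plasma cell markers Tnfrsf17 (1.29) and Irf4 (0.84) were higher and Prdm1 (-1.40) lower, and the T cell marker Cd3g was lower (-1.05). The plasma cell marker sums overlapped (324913 to 407150 in dEx1A, 352647 to 528610 in wild type), as did the myeloid sums (5003 to 7838 against 5722 to 6670). Fibroblast markers were near 0 in both (sums of 12 to 29 against 6 to 14 normalised reads). The mean level of 24 cell division genes was 11.28 to 11.43 in dEx1A and 11.51 to 11.60 in wild type. The part of these cell types in the Myc and Max differences was not tested. None of the 5 repressor genes was called, with differences from -0.31 for Mxd3 to -0.01 for Mnt.

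At day 7 of the TLR culture 7 of 8 members were called between genotypes, with a background of 54.8%. Myc read 12.11, 11.95 and 12.37 in dEx1A and 8.19, 8.74 and 8.51 in wild type. The difference of 3.66 (SE 0.18, adjusted p = 7.43e-16) was a ratio of normalised reads of 13.16, the largest genotype difference of a member on the log2 scale. Max read 10.68, 10.68 and 10.71 against 9.41, 9.50 and 9.53 (1.21, SE 0.09, adjusted p = 1.35e-11). The day 4 range was 10.61 to 10.74 in dEx1A and 10.30 to 10.48 in wild type. Mycn was higher (1.07, SE 0.20), but rests on 4, 4 and 6 reads against 0, 0 and 1.

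Mxd3 at day 7 of the TLR culture was higher in dEx1A, at 7.53, 7.78 and 8.11 against 5.60, 6.14 and 5.82 (1.95, SE 0.29, adjusted p = 3.07e-06). Mxi1 was lower (-0.63, SE 0.14, adjusted p = 0.000475). Mxd1 was lower by 0.30 (-0.30, SE 0.12, adjusted p = 0.0353), a call lost without dEx1A replicate 1 or 2 or wild type replicate 1 or 3 (-0.31 to -0.26) and after correction (-0.21). Mxd4 was not called (0.15, adjusted p = 0.591) and Mnt was higher (0.72, SE 0.26, adjusted p = 0.0191). The Mnt call was lost without dEx1A replicate 3 (0.65, adjusted p = 0.0662) and without wild type replicate 1 (0.62, adjusted p = 0.0828).

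These day 7 TLR libraries differ in depth (16.34 to 19.54 M reads in dEx1A, 22.00 to 35.56 M in wild type) and in GC offset (0.96 to 1.68 against -1.21 to -0.18). With the correction for GC content and length Myc stood at 2.96, Max at 1.42, Mycn at 0.70 and Mxd3 at 0.95, all still called. Mnt turned to -0.43 (adjusted p = 0.00348) and Mxd4 to -0.82, also called, so the direction of Mnt between genotypes here depends on that correction. The plasma cell marker sum was 413061 to 510838 normalised reads in dEx1A and 1187309 to 1680167 in wild type, and the mature B cell marker sum 41702 to 44221 against 66968 to 75320. Among the plasma cell markers Jchain (-1.83) and Prdm1 (-1.38) were lower in dEx1A, and Tnfrsf17 was higher (2.43). The largest called differences with groups apart among other markers were all higher in dEx1A. They were Thy1 (3.40) and Col1a1 (1.52) for fibroblasts, Lgals3 (1.88), Cst3 (1.12) and Cd68 (0.96) for myeloid cells, and Cd4 (0.99) for T cells. The fibroblast sum without Thy1 was 146 to 200 normalised reads against 42 to 150. Their part in the member differences was not tested. In bulk RNA, another mix of cells and another level of a transcript in each cell cannot be told apart.

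At day 7 of the BCR culture 6 of 8 members were called (background 50.8%). Mycn had the largest difference, 6.78, 6.90 and 6.73 in dEx1A against 4.34, 4.08 and 3.49 in wild type (2.83, SE 0.20), with 91 to 108 reads against 1 to 8. Myc was higher by 2.14 (SE 0.18, adjusted p = 6.04e-11), a ratio of 4.52, and Max by 0.72 (SE 0.09, adjusted p = 1.26e-07). Mxd3 (1.68, SE 0.29, adjusted p = 2.31e-05) and Mxd1 (0.53, SE 0.12, adjusted p = 0.000559) were higher, and Mxd4 was lower (-0.98, SE 0.23, adjusted p = 0.000623). Mxd4 read 10.42, 10.02 and 10.52 in dEx1A and 10.77, 11.34 and 11.78 in wild type.

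After the GC and length correction the BCR day 7 differences were 1.55 for Myc, 2.56 for Mycn, 0.83 for Max, 0.85 for Mxd3 and -1.66 for Mxd4, each still called, and Mnt became called at -0.59 from 0.20. Plasma cell marker sums were 66127 to 114126 in dEx1A and 465329 to 629617 in wild type. Myeloid sums were 6809 to 33879 against 4870 to 11179. The fibroblast marker sum was 4945 to 6998 normalised reads in dEx1A against 452 to 543 in wild type, nearly all of it Thy1 (4656 to 6777 against 170 to 231), a surface protein that T cells also carry. Without Thy1 the sum was 221 to 289 against 267 to 327, and Dcn was at 0 in both. T cell marker sums overlapped (463 to 922 against 667 to 801). Mature B cell marker sums were 40379 to 62585 in dEx1A against 87976 to 92583, with Cr2 (-3.45), Ms4a1 (-2.30) and Cd22 (-2.22) lower. The part of these cell types in the member differences was not tested.

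**Figure D3:**
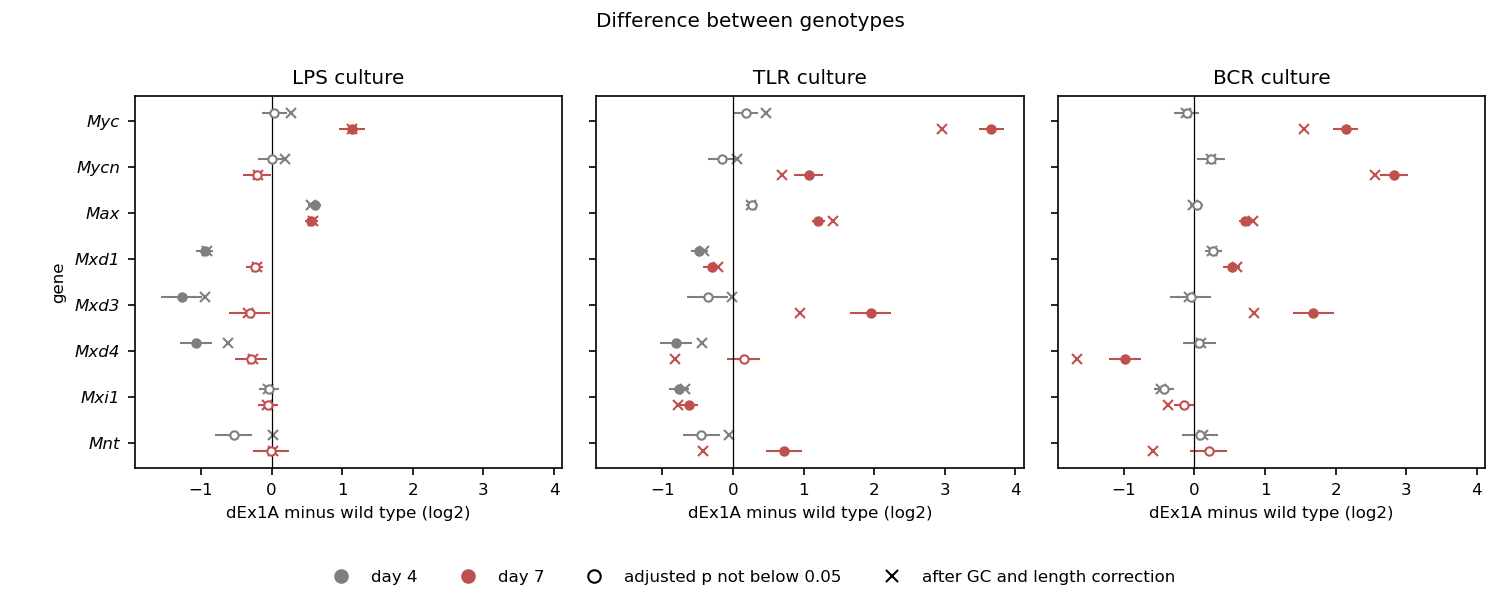
Difference between dEx1A and wild type (x axis, log2 units, with limma's standard error as bars) for each of the 8 members (y axis) at days 4 and 7 of the LPS, TLR and BCR cultures, 3 libraries a group; open circles were not called, and crosses are values after the GC and length correction. At day 4 Myc lies between -0.11 and 0.18, and at day 7 it lies at 1.14 in LPS, 3.66 in TLR and 2.14 in BCR; Mnt in TLR at day 7 (0.72) turns to -0.43 with the correction for GC content and length.

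Whether the genotype difference itself changed from day 4 to day 7 was tested with an interaction term. For Myc it changed by 3.48 in TLR (SE 0.25, adjusted p = 1.04e-10), by 2.24 in BCR (SE 0.25, adjusted p = 1.07e-07) and by 1.10 in LPS (SE 0.25, adjusted p = 0.00804). For Max it changed by 0.94 in TLR (SE 0.13, adjusted p = 2.37e-06) and by 0.69 in BCR (SE 0.13, adjusted p = 0.000158), and the LPS change was not called (-0.06, adjusted p = 0.857). Mycn changed by 2.60 in BCR (SE 0.28). Members called were 6 of 8 in TLR (background 49.4%), 5 of 8 in BCR (background 33.9%) and 2 of 8 in LPS (background 5.48%). The TLR changes of Mxd4 (0.97) and Mnt (1.17) both turned to -0.38 with the GC and length correction. The difference between cultures in this change was not tested.

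The level of the activators against the repressors was set out per kilobase of transcript, the scale on which genes can be compared. At day 0 Myc stood at a mean of 1437 normalised reads per kb, Max at 770.3, Mxd4 at 608.4 and Mnt at 246.4, with Mxi1 at 156.5, Mxd1 at 126.3, Mxd3 at 10.7 and Mycn at 0.8. At day 10 of the wild type TLR culture Myc stood at 138.6 per kb and Mxd4 at 1231. In dEx1A TLR cells at day 7 Myc stood at 2532 per kb and Mxd4 at 1259, with Max at 849.2. Mycn reached 36.9 per kb at most, in dEx1A BCR cells at day 7, against 1655 for Myc there.

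The ratio of Myc plus Mycn to the sum of the 5 repressor genes, per kb, was 1.02 to 1.59 at day 0. In wild type TLR cells it was 0.63 to 0.92 at day 4, 0.09 to 0.11 at day 7 and 0.06 in all 3 libraries at day 10. In wild type BCR cells it was 1.47 to 1.67, 0.19 to 0.29 and 0.08 to 0.17 at the same days. Wild type LPS cells were at 0.33 to 0.36 at day 4 and 0.44 to 0.49 at day 7. In dEx1A cells the day 7 ratio was 1.16 to 1.25 in LPS, 1.21 to 1.30 in TLR and 1.24 to 1.50 in BCR, so that every dEx1A day 7 library lay above every cultured wild type library of its culture at that day. At day 4 the genotypes did not overlap in LPS (0.61 to 0.73 in dEx1A) or in TLR (1.22 to 1.67), and did in BCR (1.47 to 1.63). These are RNA ratios, and protein levels were not measured. The ratios come from values without the GC and length correction. At day 4 the GC offset was -0.68 to 0.34 in dEx1A LPS libraries against 0.88 to 0.91 in wild type. In TLR it was -1.91 to -0.4 against -1.48 to 0.01. With that correction the Mxd4 genotype difference at day 4 went from -1.07 to -0.62 in LPS and from -0.81 to -0.44 in TLR. The part of GC offset in the ratios was not tested.

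The share of Mxd4 in the repressor sum varied with the day and genotype. It was 49.9 to 56.2% at day 0, 16.3 to 25.4% at day 4 of the wild type TLR culture, where Mxi1 was higher per kb (491.5 against 230.1), and 54.1 to 64.3% at day 7. In dEx1A BCR cells at day 7 it was 36.0 to 43.2%, against 60.1 to 66.7% in wild type.

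**Figure D4:**
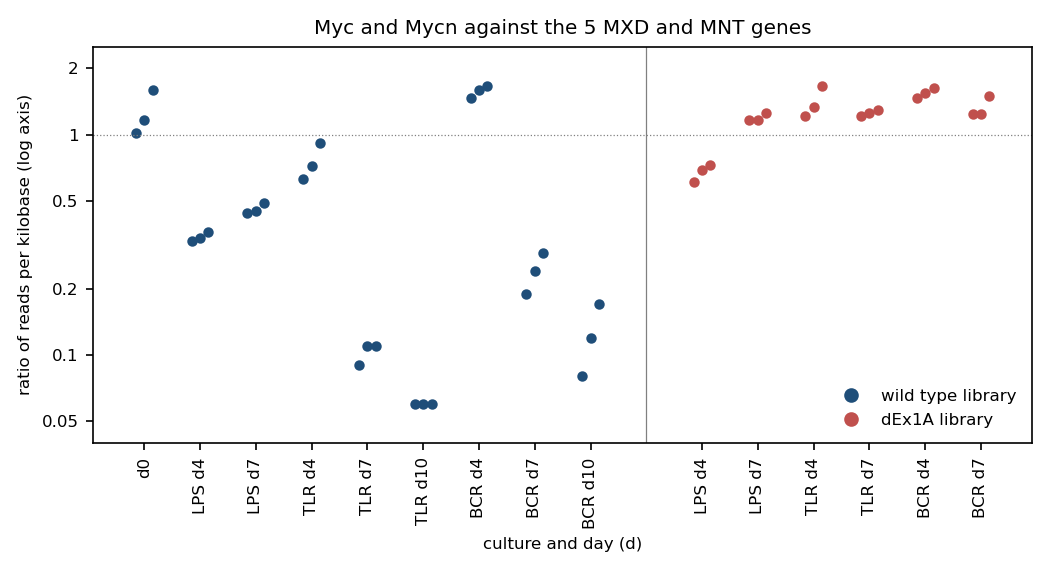
Ratio of Myc plus Mycn to the sum of Mxd1, Mxd3, Mxd4, Mxi1 and Mnt, in normalised reads per kb (y axis, log scale), by group (x axis); the 3 points of a group are its lowest, median and highest library, ordered by value and not by replicate number. The 3 dEx1A day 7 groups lie between 1.16 and 1.50. At that day the wild type groups lie at 0.09 to 0.11 in TLR, 0.19 to 0.29 in BCR and 0.44 to 0.49 in LPS. The wild type TLR and BCR groups fall to 0.06 and to 0.08 to 0.17 at day 10, a day without dEx1A libraries here. The ratios are not corrected for GC content and length.

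Ordered by group mean, Myc was highest in the 3 dEx1A day 7 groups (TLR 12.14, LPS 11.72, BCR 11.53), followed by day 0 (11.32) and then the day 4 groups and wild type LPS day 7. The lowest were wild type BCR day 7 (9.39), TLR day 7 (8.48), BCR day 10 (8.47) and TLR day 10 (8.04). Of the 14 pairs of neighbours in this order, 4 did not overlap for Myc; the others cannot be ranked against each other beyond their spread. For Mxd1 3 neighbouring pairs did not overlap, for Mycn and Mxi1 2 each, and for Max, Mxd3, Mxd4 and Mnt 1 each. Max was highest in dEx1A TLR day 7 (10.69) and equally low in wild type TLR at days 7 and 10 (9.48). Mxd4 was highest in dEx1A TLR day 7 (11.62) and lowest in dEx1A TLR day 4 (8.38), with wild type TLR day 10 second (11.58). These orders use values without the GC and length correction. With it the Mxd4 genotype difference at day 7 of TLR went from 0.15 to -0.82, so the top place of Mxd4 depends on that setting.

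Over the 15 group means, Myc and Max had a Pearson r of 0.81, Mxd4 and Mnt 0.79, and Mxd1 and Mxi1 0.69. Max was opposed to Mxd1 and to Mxd4 (both -0.60), and Myc and Mxd4 had an r of -0.25. The groups share depth and GC offsets, so these values describe the courses only. Of 20916 genes, those most like Myc were Vps37b (0.966), Xpo6 (0.929) and Lnx2 (0.921). Those most like Mxd4 were Rab3a (0.967), Eme2 (0.965) and Ccdc167 (0.963), and those most like Mnt included Mast3 (0.978) and Zer1 (0.976). Mxd3 was closest to Rnf26 (0.971), Calm3 (0.958) and Wdr62 (0.957), Max to Plekhh1 (0.889), Olfr543 (0.882) and Tmem229b (0.872), Mxi1 to Stard3nl (0.926), Iffo2 (0.905) and AC123927.3 (0.904), and Mxd1 to Cmtm8 (0.938), Tbc1d8 (0.860) and Plxnb3 (0.844). Mycn was closest to Cpne6 (0.966), Fam19a3 (0.957) and Adgra2 (0.948), over groups of which many had few or no Mycn reads.

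Genes around the network were read as lists. The background share of all genes called in each comparison is given above, beside the counts of members. Of 30 textbook MYC-activated targets, which serve ribosome assembly, metabolism and growth, 20 were higher and none lower from day 0 to day 4 of the wild type TLR culture, with a median difference of 1.02 against 0.01 for all genes tested. Myc RNA itself was lower at day 4 than at day 0. The targets with the largest rise were Ccnd2, a cyclin of early division (3.45), Slc7a5, an amino acid transporter (3.18), and Ldha, an enzyme of glycolysis (2.67). From day 4 to day 7 none was higher and 21 were lower (median -0.99 against -0.06), with Ldha at -2.14 and Npm1, a nucleolar protein, at -1.90. From day 7 to day 10 limma called none of the 30 (median 0.09 against 0.01), voom on recovered reads also called 0, and 2 had an unadjusted p under 0.05. Of 24 cell division genes 24 rose at day 4, 23 fell at day 7 and 12 fell at day 10.

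The BCR culture had the same shape, with 24 of 30 targets higher and none lower at day 4 (median 1.53 against 0.00) and 20 lower, none higher, at day 7 (median -1.19 against 0.00). Tfrc, the transferrin receptor, rose by 2.91 at day 4, and the mitochondrial chaperone Hspd1 fell by 2.43 at day 7. In the LPS culture 25 were higher and none lower at day 4 (median 1.23 against -0.01), with Srm, spermidine synthase, at 3.69, and 5 were lower at day 7 (median -0.35 against 0.00). Between TLR and BCR at day 4, 8 targets were lower and 1 higher in TLR (median -0.53 against -0.01), among them the DNA repair enzyme Apex1 (-0.94) and the nucleotide kinase Nme1 (-0.92).

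Myc rose from day 4 to day 7 in dEx1A cells, but in BCR its rise was 0.23 and not called after the GC and length correction. Over this step the share of all genes called was 34.1% in LPS, 62.1% in TLR and 53.9% in BCR. More targets were called lower than higher in each culture. In LPS 13 of 30 were lower and 1 higher (median -0.30 against 0.00), with Npm1 at -1.08 and Hspd1 at -0.99. In TLR 15 were lower and 9 higher (median -0.53 against -0.05), with Hspd1 at -2.27 and Bop1, a ribosome assembly factor, at 2.32. In BCR 12 were lower and 8 higher (median 0.00 against -0.04), with Hspd1 at -1.53 and Ppan, a ribosome assembly factor, at 1.71. After the GC and length correction the TLR split was 19 lower and 4 higher, and the BCR split 14 lower and 2 higher (median -0.28). Of 24 cell division genes, 19 were lower and 0 higher in LPS at day 7, 16 lower and 3 higher in TLR, and 12 lower and 4 higher in BCR (median -0.19). After the correction the BCR counts were 8 lower and 2 higher (median -0.07).

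Between genotypes at day 4, targets were higher in dEx1A in LPS (11 of 30, none lower, median 0.18 against 0.00) and in TLR (10 of 30, none lower, median 0.32 against -0.04), with Gnl3 (1.05) and Nop58 (1.01), both nucleolar proteins, ahead in TLR. In BCR 1 was called, Odc1 (0.44), an enzyme of polyamine synthesis. At day 7, 21 targets were higher and 1 lower in TLR (median 0.67 against -0.04) and 25 higher and 1 lower in BCR (median 1.07 against 0.00). Rrp9, a ribosome assembly factor, was higher by 3.08 and 2.78, or by 1.82 and 1.81 after the GC and length correction, still called. Bop1 was higher by 2.68 and 2.01, or by 1.69 and 1.30 after correction. After the correction 22 targets were higher and 1 lower in TLR (median 0.70) and 26 higher in BCR (median 0.91). In the same libraries 20 and 19 of 24 cell division genes were higher, with mean levels of 11.03 to 11.19 against 10.04 to 10.19 in TLR and 11.58 to 11.74 against 10.53 to 10.83 in BCR, and their part in the target values was not tested.

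At day 7 of the LPS culture, where Myc was higher in dEx1A by 1.14, 1 of 30 targets was called, Ccnd2 (0.91), with a list median of 0.22 against 0.00 for all genes, and 7 were higher at an unadjusted p under 0.05. Of the cell division genes limma and voom called 0 there, and 2 were lower at an unadjusted p under 0.05. Of 8 textbook MYC-repressed targets 3 were higher in dEx1A (median 0.35), with the cell cycle inhibitors Cdkn2b (2.32) and Cdkn1a (1.36) ahead. In TLR and BCR at day 7 Cdkn1a was higher in dEx1A by 2.60 and 3.87, and 3 and 4 of the 8 were higher, with 1 lower in each. After the correction 3 were lower in TLR and 2 in BCR, with the numbers higher as before.

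Among 5 other partners of MAX and MLX, Mycl, the third MYC family gene, was higher in dEx1A at day 7 in LPS (0.94), TLR (1.54) and BCR (1.70); after correction TLR gave 0.90 and BCR 1.27, both called. Mga, a large repressor that pairs with MAX, was lower in TLR (-1.17) and BCR (-1.19), and after correction the values were -0.40 and -0.32, both called. In wild type cells Mycl rose in the TLR culture by day 4 (1.65 against day 0) and fell at day 7 (-1.35). Mlxip, the partner of MLX known as MondoA, fell at day 4 in TLR (-1.57) and BCR (-2.20). Txnip, a target of MLX pairs that restrains glucose uptake, fell at day 4 in TLR (-0.81), BCR (-2.31) and LPS (-1.70), rose at day 7 in BCR (1.41), LPS (1.51) and TLR (0.67), and was higher in TLR than in BCR at day 4 (1.50).

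Of 10 coactivators of MYC, 5 were higher and 1 lower in dEx1A at day 7 of the TLR culture (median 0.43) and 5 higher and 2 lower in BCR (median 0.35), with Ruvbl2, an ATPase of MYC complexes, at 2.99 and 2.33, or 1.89 and 1.51 after correction. Of 10 SIN3 and NCOR corepressors, 3 were higher and 2 lower in TLR (median 0.09) and 4 higher and 2 lower in BCR (median 0.29). Of 10 genes of MYC protein turnover, 3 were higher and 3 lower in TLR and 3 higher and 4 lower in BCR (medians -0.18 and -0.11). The shares called in these 3 lists, 5 to 7 of 10, lie near those over all genes (54.8% in TLR and 50.8% in BCR). In LPS cells at day 7 limma and voom called 0 genes of these 3 lists, and 2 turnover genes had an unadjusted p under 0.05.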

How the data were processed

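The members and the gene lists were chosen with earlier results of these data known, so list counts are descriptions. RNA was extracted with TRIzol, libraries came from a TruSeq Stranded Total RNA kit, and sequencing on a NextSeq 500 gave single reads of 76 bases, per the labels' protocols. The submitters' processing notes list DESeq2 1.22.2, RSEM 1.3.0, STAR 2.6.0c and Trim Galore 0.6.0, among others. What each did, the annotation and the strand setting are not stated there. The authors deposited log2 values, 1 per gene and library and variance-stabilised (per the file names), in 2 tables of 28196 genes (21 and 39 libraries; the 15 shared columns are identical). The gene Cnksr3 was dropped, since 1 value lay below the value of a gene with no read.

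Reads were recovered by inverting the transformation (floor 3.045), with 95.1 to 100.0% of values under 20 reads whole within 0.1, and set the depths, the normalised reads and the reads per kb. Chi-square per gene between libraries of a group was 11.34 to 477.93, so none was a repeat of another. Genes with a value at least 1 above the floor in at least 3 libraries were tested, 19497 in the wild type table (residual df 14) and 20331 in the table of both genotypes (residual df 26). limma 3.58.1 in R 4.3.3 fitted group means over all libraries of a table, with a mean-variance trend, and p-values were adjusted by Benjamini-Hochberg within each comparison. TLR and BCR wild type comparisons came from the wild type table and all others from the table of both genotypes. The fit and the count steps were tested on simulated data.

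Named genes are all 8 members, up to 3 genes per list and comparison with the largest difference among those called with groups apart, the 3 genes most like each member over the group means, and Prdm1; a few that the rule names are not reported here. GC content, length and positions came from GENCODE M21 (GRCm38). Same-numbered libraries deviated together (every correlation over 0.1) in wild type TLR against BCR at day 4 (0.13, 0.77 and 0.82) and day 10 (0.14, 0.44 and 0.33), dEx1A LPS day 7 against day 4 (0.29, 0.23 and 0.17) and dEx1A TLR against BCR at day 4 (0.26, 0.64 and 0.50), and blocked values are given beside those results where they change a call. Sex and age are as the sample labels give them; the protocol text describes matching on both. Alternatives were a GC and length correction, median centring, quantile normalisation, other filters, no trend, only the groups compared, a replicate block, voom on recovered reads, single libraries left out, and, chosen after seeing the data, 2 day 10 BCR libraries left out together.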

Additional observations from a re-analysis of the deposited data

Results flagged for a closer look

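For 13 of 24 combinations of a member and a culture, the difference between dEx1A and wild type itself changed from day 4 to day 7, by limma's interaction term (3 libraries a group, adjusted over all genes tested). Over all genes tested the same term was called for 49.4% in TLR, 33.9% in BCR and 5.48% in LPS. The Mycn changes counted here are descriptions, since Mycn passed the filter only through groups where it is high. In the TLR culture the changes were 3.48 for Myc (SE 0.25, adjusted p = 1.04e-10), 2.31 for Mxd3 (SE 0.42, adjusted p = 6.4e-05), 1.24 for Mycn (SE 0.28), 1.17 for Mnt (SE 0.37, adjusted p = 0.00886), 0.97 for Mxd4 (SE 0.32, adjusted p = 0.0127) and 0.94 for Max (SE 0.13, adjusted p = 2.37e-06). In the BCR culture they were 2.60 for Mycn (SE 0.28), 2.24 for Myc (SE 0.25, adjusted p = 1.07e-07), 1.74 for Mxd3 (SE 0.42, adjusted p = 0.0022), 0.69 for Max (SE 0.13, adjusted p = 0.000158) and -1.05 for Mxd4 (SE 0.32, adjusted p = 0.0123). In the LPS culture they were 1.10 for Myc (SE 0.25, adjusted p = 0.00804) and 0.70 for Mxd1 (SE 0.17, adjusted p = 0.0122).

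The Mxd1 change in LPS was not called without dEx1A day 4 replicate 1 or dEx1A day 7 replicate 2 (0.57 to 0.63), and the Mxd4 change in TLR not without wild type day 7 replicate 1 (0.79, adjusted p = 0.0522). The dEx1A day 4 libraries held 23.23 to 30.09 M recovered reads and the dEx1A day 7 libraries 15.12 to 19.58 M, and the part of depth in these changes was not tested. With the GC and length correction Myc kept its calls at 2.49 in TLR, 1.67 in BCR and 0.85 in LPS, and Max at 1.16 and 0.85. Mxd3 kept its calls at 0.97 and 0.91, Mycn in BCR at 2.33 and Mxd4 in BCR at -1.77, while Mycn in TLR was not called (0.65). In TLR that correction turned the changes of Mxd4 (-0.38, adjusted p = 0.0484) and Mnt (-0.38, adjusted p = 0.0728) to the opposite sign.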

How the results depend on the processing

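Of the 112 member differences called, 90 stayed called whichever single library was left out, and none of the member differences that were called changed sign then. In other settings 5 values of called differences changed sign, all of Mnt or Mxd4 between genotypes in the TLR culture; differences that were not called also changed sign, such as Mnt between genotypes at day 7 of BCR (0.20, and -0.59 with the GC and length correction). With the GC and length correction the Mnt genotype difference at day 7 of TLR was -0.43 in place of 0.72, and the changes of the genotype difference in TLR were -0.38 for Mxd4 and -0.38 for Mnt; a replicate block with that correction gave -0.38 and -0.38. The cause was not tested.

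The number of members called moved as follows. Wild type TLR day 10 against day 7 had 2, and 1 with median centring, quantile normalisation or voom, 0 with only the groups compared, a replicate block, or the block with the GC and length correction, and 0 to 1 with 1 library left out. BCR day 7 against day 4 had 5, and 3 with a replicate block. BCR day 10 against day 7 had 3, and 0 with only the groups compared or the block, 5 with quantile normalisation and 1 with the block and correction. TLR against BCR at day 7 had 3, 1 with median centring and 0 to 3 with 1 library left out. TLR against BCR at day 10 had 1, and 3 with the correction, 2 with median centring, 0 with only the groups compared, the block, the block and correction, or both high-myeloid libraries left out, and 0 to 3 with 1 library left out. Wild type LPS day 7 against day 4 had 2, 0 with the block and 1 to 2 with 1 library left out. dEx1A BCR day 7 against day 4 had 8, 4 with the correction and 3 with the block and correction. dEx1A TLR against BCR at day 7 had 5, 3 with only the groups compared, 2 with the block and 3 to 6 with 1 library left out. dEx1A against wild type in TLR at day 4 had 3, 5 with the correction, 0 with only the groups compared and 1 to 3 with 1 library left out. The change of the genotype difference had 2 in LPS (1 with median centring or quantile normalisation, 4 with the block, 1 to 2 with 1 library left out), 6 in TLR (3 with the block and correction) and 5 in BCR (2 with the block).

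Median centring also ended the calls of Mxi1 (0.91) and Mycn (-0.64) in wild type TLR against BCR at day 7, Mxi1 in dEx1A BCR day 7 against day 4 (0.07), Mxd1 in dEx1A TLR against BCR at day 7 (-0.27), Mxd1 between genotypes in TLR at day 4 (-0.28) and the change of the Mxd1 genotype difference in LPS (0.58).

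Where same-numbered libraries deviated together, the replicate block changed the call of no other member than Myc at day 4 and Mxi1 at day 10 of TLR against BCR. Over all genes the count of calls differed by more than 1.5 times in 10 of 27 comparisons with the GC and length correction, 10 of 27 with only the groups compared, 10 of 20 with the block, 9 of 20 with block and correction, 2 of 27 with voom, 1 of 27 with median centring, 2 of 3 with both high-myeloid libraries left out and 32 of 180 with 1 library left out. Median centring moved the median of all genes by -0.39 to 0.17 and the share of higher calls by over 10 percentage points in 14 comparisons. With 3 libraries a group, depth limits Mycn, which had 0 to 8 reads a library outside the day 4 BCR groups and the dEx1A day 7 BCR group.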

Other observations

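The MYC protein turnover list holds 10 genes. In the wild type cultures the share of all genes called was 48.3% from day 0 to day 4 of TLR and 50.6% in BCR. From day 4 to day 7 it was 36.3% in TLR, 30.5% in BCR and 8.40% in LPS. At day 4 of the wild type TLR culture 6 of them were higher than at day 0 and 2 lower (median 1.12 against 0.01 for all genes tested), and in BCR 5 were higher and 3 lower (median 1.18). Between day 4 and day 7 of the wild type BCR culture 2 were higher and 4 lower, among them Fbxw7 (-1.16) and Skp2 (-1.13), which encode ubiquitin ligase parts that bind MYC. Of 8 textbook MYC-repressed genes, 4 were higher and 1 lower at day 4 of TLR, then 2 higher and 4 lower at day 7. Cdkn1a, which encodes the inhibitor p21, was among them, with differences of 5.65 and then -2.06. In wild type LPS cells it was higher at day 7 than at day 4 (1.53).

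In dEx1A cells at day 7, where Myc was higher in TLR than in BCR (0.62) and Mycn lower (-2.52), 16 of 30 MYC-activated targets were lower in TLR and 1 higher (median -0.59 against -0.06), with Apex1 at -1.24, and 17 of 24 cell division genes were lower. The share of all genes called in this comparison was 31.5%. Mycl was also lower in TLR there (-0.86), and Txnip higher (1.03).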
